A study of Mus musculus with 5 samples.

Results

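The AP-2 genes Tfap2a, Tfap2b, Tfap2c, Tfap2d and Tfap2e were examined for the repressive histone mark H3K27me3 in mouse dermal fibroblasts. These 5 genes are the whole Tfap2 family, taken by symbol from 21951 protein-coding genes of the GRCm38 annotation. The data are 4 lists of H3K27me3 peaks from chromatin immunoprecipitation sequencing (ChIP-seq), from cultured dermal fibroblasts of wild-type (WT) skin, with 2 libraries labelled E14 and 2 labelled E17. The study's text calls these stages E14.5 and E18.5, and the stage names of the labels are kept here. The cells were expanded in culture before fixation, nothing says which animals gave each library, and the spread between 2 libraries may therefore be technical. An input library shared by both stages was not analysed here.

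AP-2 proteins are transcription factors that bind GC-rich DNA as dimers through a helix-span-helix domain. AP-2α and AP-2γ, the products of Tfap2a and Tfap2c, act in the embryonic surface ectoderm and epidermis, and AP-2α and AP-2β, the product of Tfap2b, act in the neural crest and the face. AP-2δ and AP-2ε, the products of Tfap2d and Tfap2e, are known mainly from the developing nervous system. H3K27me3 is written by Polycomb repressive complex 2, often as wide domains over regulators of cell types other than the one at hand, and is removed by demethylases such as Kdm6b. The comparison of E14 with E17 asks where this mark was retained or reduced while dermal fibroblast progenitors differentiated.

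Peaks mark intervals in which more fragments were recovered than in the local background. For each gene, peaks were read within 3000 bp of any annotated transcription start site (the start-site windows), over the gene body and, for Tfap2d and Tfap2b, which lie side by side, between the genes. Fold enrichment, the ratio of pileup to local background averaged over a peak, was used only as a percentile within a list, where 100 is the strongest peak. The E14 lists held 21546 and 16574 peaks covering 52.8 and 32.1 Mb, and the E17 lists held 10429 and 7107 peaks covering 20.0 and 14.3 Mb. The lists hold no read counts from which depth could be checked, and a base outside a peak was under the threshold of that list, not shown to be free of the mark. A mark lost from some cells and a weaker mark in all cells cannot be told apart in these bulk libraries. Of 10 dermal fibroblast markers, none had a peak at a start site in any list (0 of 10, including Col1a1, Pdgfra, Twist2 and Dcn). Of 21951 protein-coding genes, 5675 had a peak in their start-site windows in at least 1 list. Most genes thus had none, and a missing peak at a marker does not by itself identify the cells. Peaks were found at both stages at Krt1 and Cdh1 among 6 keratinocyte markers, at Sox10 among others of the melanocyte and Schwann cell markers, at Kdr among 4 endothelial markers and at Myod1 and Pax7 among 4 muscle markers.

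The sequences just before a start site are given for the 4 members with a RefSeq promoter entry (GRCm38.p6), because each of these 250-base stretches lay wholly inside a peak in all 4 lists. Each is printed 5′ to 3′ on the strand of its gene and ends at the base before the start site. The bases were searched for the AP-2 consensus GCCNNNGGC and for its form with 4 N in place of 3, both of which read the same on either strand. Capitals mark a match.
Tfap2a, chr13:40734921-40735170, minus strand: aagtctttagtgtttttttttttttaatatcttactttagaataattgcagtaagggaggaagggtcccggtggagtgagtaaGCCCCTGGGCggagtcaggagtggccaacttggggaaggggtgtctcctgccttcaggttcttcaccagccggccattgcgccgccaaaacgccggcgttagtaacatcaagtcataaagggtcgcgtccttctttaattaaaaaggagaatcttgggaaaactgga
Tfap2b, chr1:19211804-19212053, plus strand: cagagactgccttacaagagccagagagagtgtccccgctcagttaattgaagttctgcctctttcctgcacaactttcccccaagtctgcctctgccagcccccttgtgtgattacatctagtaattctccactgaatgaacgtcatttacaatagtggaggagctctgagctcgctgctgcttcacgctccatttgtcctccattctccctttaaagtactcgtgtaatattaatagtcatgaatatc
Tfap2d, chr1:19102772-19103021, plus strand: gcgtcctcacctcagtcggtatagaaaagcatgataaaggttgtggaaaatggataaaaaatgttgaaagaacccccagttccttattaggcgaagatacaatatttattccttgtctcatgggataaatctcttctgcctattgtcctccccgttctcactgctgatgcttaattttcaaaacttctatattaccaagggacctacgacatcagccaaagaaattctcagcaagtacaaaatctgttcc
Tfap2e, chr4:126736270-126736519, minus strand: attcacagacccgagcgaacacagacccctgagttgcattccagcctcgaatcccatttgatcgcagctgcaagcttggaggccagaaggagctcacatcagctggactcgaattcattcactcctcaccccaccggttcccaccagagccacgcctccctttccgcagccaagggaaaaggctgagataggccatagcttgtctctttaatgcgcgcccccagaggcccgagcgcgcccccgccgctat
Tfap2c has no entry in the promoter table. The 4 genes have 7 entries, of which 1 per gene is printed, and the Tfap2a stretch shown was the only one of the 7 with a match, in the longer-spaced form. Of 32851 RefSeq promoters, 12.3% held that form in the same 250 bases and 13.7% held GCCNNNGGC. A match describes the letters and not a bound site. The printed stretches differed in base composition. Tfap2d was the poorest, with 39.6% G and C and 5 CpG dinucleotides, and Tfap2e the richest, with 59.2% and 15, while the median of all promoters was 52.4% and 6 CpG. Tfap2a had 47.6% and 10 CpG, and Tfap2b had 46.4% and 5. Another Tfap2d entry, not printed, had 55.2% and 7 CpG. Thus the CpG counts of the printed stretches lay on both sides of the promoter median. Within 500 bp of the 5′ end of the gene record, Tfap2c (69 CpG), Tfap2e (63) and Tfap2a (52) lay above the median of protein-coding genes (41), and Tfap2d (29) and Tfap2b (26) lay below it. Relative to the number expected from their C and G content, no member was poor in CpG. This ratio was 0.667 at Tfap2d, 0.673 at Tfap2b and 0.566 to 0.722 over the family, above the median of 0.552.

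All 5 AP-2 genes carried H3K27me3 peaks at their start sites in every library, at E14 and at E17. Among protein-coding genes, 19.5% had such a peak in both E14 libraries and 12.2% in both E17 libraries. Of the 4270 genes with a peak in both E14 libraries, 61.9% had one in both E17 libraries, and of the AP-2 genes 5 of 5. The mark lay over the start sites themselves. The 5 genes have 23 annotated start sites, and all 23 were inside a peak in all 4 lists, against 3.53% of 93526 start sites of protein-coding genes. With only peaks of a −log10 q-value of at least 5, Tfap2d had no peak at its start sites in E17 replicate 2, and 4 of the 5 genes were marked in both E17 libraries.

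**Figure D1:**
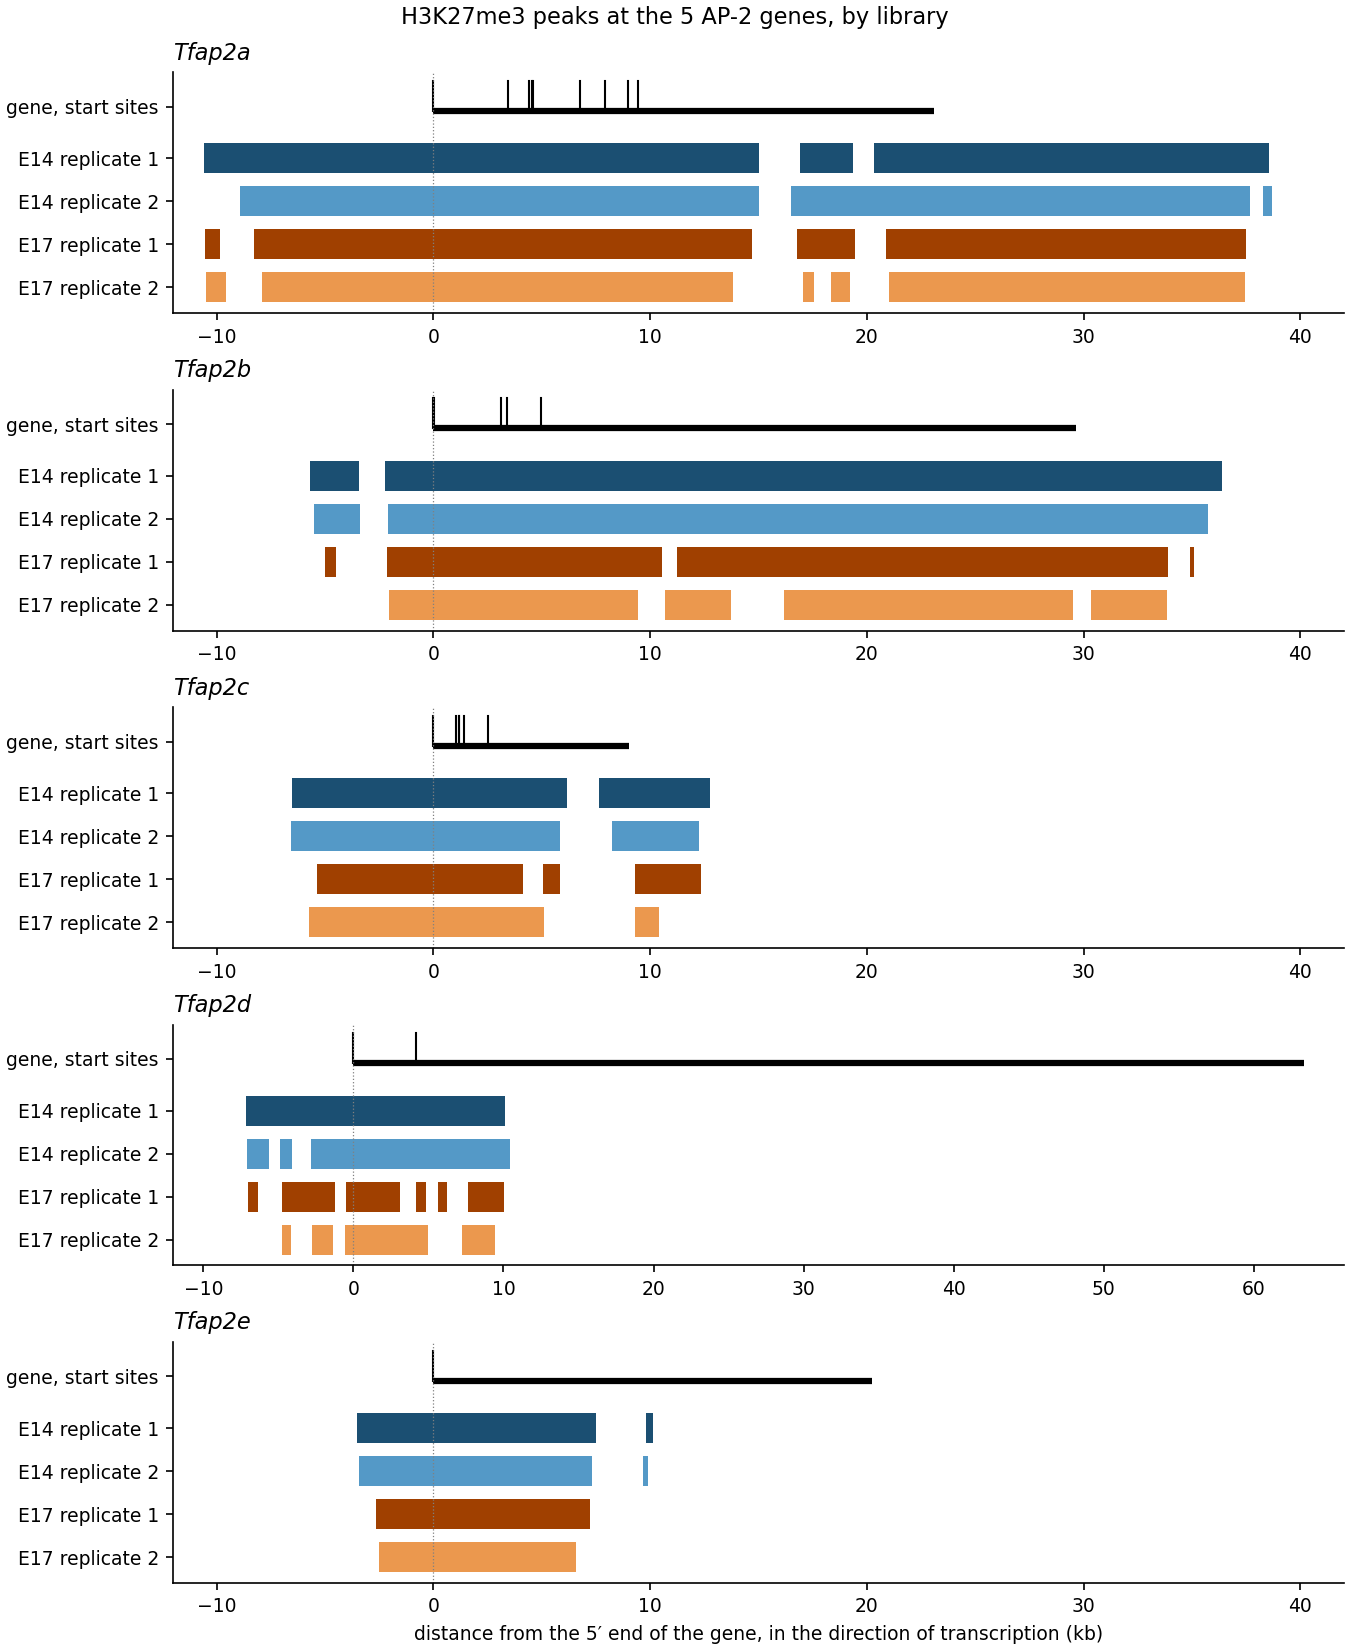
H3K27me3 peaks (bars) of each library along the 5 AP-2 genes, by distance in kb from the 5′ end of the gene in the direction of transcription, with the gene as a black line and its start sites as ticks (the axis of Tfap2d is longer). Peaks cover every start site in all 4 libraries, the wide E14 domains of Tfap2b and Tfap2d appear as several peaks at E17, and the Tfap2d domain ends far short of the end of that gene.

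Tfap2a (ENSMUSG00000021359.16, chromosome 13 from 40715302 to 40738376, minus strand) had the greatest length under peaks of the family, summed over its whole domain. The longest unbroken region of the family, of 38590 bp, was at Tfap2b. Peaks covered the 15433 bp of start-site windows of Tfap2a completely in all 4 libraries. The domain had 2 blocks. The upstream block spanned the start sites and reached 10608 bp before the 5′ end, and the downstream block spanned the last part of the gene and continued past its 3′ end to the noncoding RNA gene Gm9979, whose start-site window was fully covered in all 4 lists too. Between them, 1486 bp inside the gene (40721872 to 40723357) lay in no peak of any list, with 232 bp of exon sequence in this gap. The peak over the start sites was 25614 and 23949 bp wide in the E14 libraries and 22973 and 21729 bp wide in the E17 libraries. It stood at the 99.8 and 99.6 percentile at E14 and 98.8 and 97.4 at E17. In the E17 lists this peak ranked 46 and 36 by width among all peaks. Of its 12 merged exons, 11, 11, 11 and 9 lay wholly inside peaks in E14 replicates 1 and 2 and E17 replicates 1 and 2.
Over both blocks, peaks covered 46275 and 45471 bp at E14 and 42964 and 40472 bp at E17. The mean changed from 45873 ± 569 bp to 41718 ± 1762 bp (SD, n = 2 per stage, exact permutation test, two-sided, p = 0.333), a change of -9.06%, and the stages did not overlap. With 2 libraries per stage this test has 3 splits, so 0.333 is the smallest p it can give and no difference between the stages can pass 0.05. Base by base, 82.7% of the domain was covered in all 4 lists and 3.99% was covered in both E14 lists and in neither E17 list. At the upstream end, both E17 libraries showed a gap of 1587 and 1671 bp followed by a separate outer peak of 671 and 933 bp, where E14 replicate 1 had 1 unbroken peak and E14 replicate 2 ended within the gap. The antisense genes Gm26688 and Gm47067 lie inside the upstream block, and the mark at their start sites cannot be separated from that of Tfap2a.

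Tfap2b (ENSMUSG00000025927.13, chromosome 1 from 19208914 to 19238576, plus strand) was covered along its whole length at E14. A single peak of 38590 bp in replicate 1 and 37802 bp in replicate 2 began just upstream of the gene and ended beyond it, over the noncoding RNA gene Gm28340. These were the peaks ranked 39 and 12 by width in their lists. At E17 the same stretch was called as 3 peaks in replicate 1 and 4 peaks in replicate 2. The widest were 22677 and 13338 bp, and the peaks over the start sites were 12704 and 11515 bp.
The breaks fell inside and downstream of the gene and not at its start sites. In the 10966 bp of start-site windows, the covered length was 10193 and 10052 bp at E14 and 10109 and 10028 bp at E17, and the stages overlapped (a change of -54.0 bp, exact permutation test, two-sided, p = 0.667). Without E14 replicate 1 the change was 16.5 bp. With windows of 5000 bp it was -1664.5 bp, with 13778 and 13684 bp at E14 and 12618 and 11515 bp at E17, and the stages did not overlap. Within 1000 bp of the start sites, all 5873 bp were covered in each library. Over the gene body, peaks covered 29663 bp (100%) in both E14 libraries and 28992 bp (97.7%) and 25835 bp (87.1%) in the E17 libraries. Over the whole domain, the mean changed from 38196 ± 557 bp to 33489 ± 2951 bp (SD, n = 2 per stage, exact permutation test, p = 0.333), or by -12.3%. Both E17 libraries showed a break inside the gene, of 671 bp (19219475 to 19220145) in replicate 1 and 1254 bp (19218367 to 19219620) in replicate 2. These breaks overlapped only from 19219475 to 19219620. E17 replicate 2 had a longer break inside the gene, of 2403 bp (19222665 to 19225067), which lay within a peak of E17 replicate 1. The percentile of the peak over the start sites was 98.5 and 96.2 at E14 and 96.7 and 94.6 at E17.

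Tfap2c (ENSMUSG00000028640.11, chromosome 2 from 172549593 to 172558622, plus strand) carried a strong peak over its start sites and a weaker one at its 3′ end. The first was 12704 and 12412 bp wide at E14 and 9507 and 10823 bp wide at E17, at the 99.7 and 99.1 percentile and the 98.7 and 97.1 percentile. Peaks covered the 8524 bp of windows completely at E14 and 7574 and 8093 bp of them at E17 (a change of -690.5 bp or -8.10%, exact permutation test, two-sided, p = 0.333), so the stages did not overlap. Within 1000 bp of the start sites, the windows were fully covered in all 4 libraries, and the uncovered bases lay farther out. The reach upstream of the 5′ end was 6521 and 6591 bp at E14 and 5384 and 5730 bp at E17.
The 3′ peak was 5120 and 4041 bp wide at E14 and overlapped the end of the gene. At E17 it was 3039 and 1122 bp wide and lay wholly beyond the gene. Its percentile was 81.3 and 64.9 at E14 and 62.8 and 37.9 at E17. Between both peaks, 1467 bp (172555776 to 172557242, with 297 bp of exon) lay in no peak of any list. Peaks covered 7563 and 6627 bp of the gene body at E14 (83.8% and 73.4%) and 4876 and 5093 bp at E17 (54.0% and 56.4%). Over both peaks and their fragments, the mean changed from 17139 ± 969 bp to 12622 ± 957 bp (SD, n = 2 per stage, exact permutation test, p = 0.333), or by -26.4%. The bases covered in both E14 lists and neither E17 list were 10.4% of the domain. They lay at the upstream edge and from 172557817 to 172558883, between the E17 peaks on either side of the stretch without a peak.

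Tfap2d (ENSMUSG00000042596.7, chromosome 1 from 19103022 to 19166346, plus strand) had the lowest percentiles of the family. Its domain covered the 5′ end alone. The last peak ended 10461 bp into the gene, and the remaining 52863 bp of the gene body had no peak in any list. At E14, replicate 1 had a single peak of 17235 bp, and in replicate 2 the start sites lay in a peak of 13285 bp with 2 shorter ones upstream. At E17 there were 6 peaks in replicate 1 and 4 in replicate 2, the widest 3637 and 5479 bp. The percentile of the strongest peak at the start sites was 89.9 and 84.4 at E14 and 84.0 and 68.2 at E17, below that of the other members in each list.
The start-site windows of 10160 bp were covered for 10160 and 9983 bp at E14 and for 6700 and 6866 bp at E17. The mean changed from 10072 ± 125 bp to 6783 ± 117 bp (SD, n = 2 per stage, exact permutation test, two-sided, p = 0.333), or by -32.7%, a difference of -3288.5 bp that was larger than the spread between replicates. Around the 5′ end of the gene alone, the change was -813 bp or -13.8%, with 6001 and 5824 bp at E14 and 5282 and 4917 bp at E17. Over the whole domain, peaks covered 17235 and 15564 bp at E14 and 11521 and 9694 bp at E17. Only 46.1% of the domain was covered in all 4 lists. The bases covered in both E14 lists and neither E17 list came to 3351 bp, or 19%, of which 3228 bp lay between E17 peaks and 123 bp at the edges. Both E17 lists left a gap just upstream of the start, of 719 bp (19101794 to 19102512) and 836 bp (19101657 to 19102492). The 250-base stretch printed above was still inside a peak in each list. Of 9 merged exons, 4 lay inside peaks in both E14 lists and 3 in both E17 lists.
The direction at Tfap2d depended on how the lists were compared. When each list was reduced to its top peaks by q-value up to the covered length of the shortest list, the E14 peaks at Tfap2d were no longer among them, with 0 and 0 bp of the windows covered at E14 against 4316 and 6866 bp at E17. With an equal number of peaks per list, the windows were covered for 10160 and 9983 bp at E14 and 6088 and 6866 bp at E17. When peaks within 3000 bp of each other were joined, all 10160 bp were covered in each of the 4 libraries. The antisense gene Gm15825 overlaps the 5′ end of Tfap2d, and the peaks there cannot be assigned to either gene.

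The start sites of Tfap2d and Tfap2b are 105892 bp apart. Between the end of the one domain and the first peak before the other, 89728 bp of chromosome 1 (19113484 to 19203211) held no peak in any list, so that the pair lay in separate domains. The 42567 bp between the genes were covered for 4514 and 4222 bp at E14 and 2665 and 2062 bp at E17, all of it near Tfap2b. The mean changed from 4368 ± 207 bp to 2364 ± 426 bp (SD, n = 2 per stage, exact permutation test, two-sided, p = 0.333), or by -45.9%.
Most of this change was in a separate peak upstream of Tfap2b, outside its start-site windows. It was 2287 and 2136 bp wide in the E14 libraries and 522 bp wide in E17 replicate 1, and E17 replicate 2 had none. Its percentile was 83.4 and 67.1 at E14 and 21.8 in E17 replicate 1. In the top peaks of equal covered length this peak was in none of the lists, and the interval was then covered for 2227 and 2086 bp at E14 and 2143 and 2062 bp at E17.

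Tfap2e (ENSMUSG00000042477.7, chromosome 4 from 126716006 to 126736240, minus strand) had the most compact domain and, with Tfap2a and Tfap2c, one of the strongest peaks. It was a single peak over the only annotated start site, 11026 and 10728 bp wide at E14 and 9883 and 9099 bp wide at E17. It stood at the 99.6 and 99.5 percentile at E14 and the 98.1 and 98.9 percentile at E17. It was not broken in any list. It covered the 6001 bp of the window completely at E14 and 5655 and 5510 bp at E17 (a change of -418.5 bp or -6.97%, exact permutation test, two-sided, p = 0.333), so the stages did not overlap. The uncovered bases lay at the upstream edge, which reached 3519 and 3426 bp before the start at E14 and 2654 and 2509 bp at E17.
Inside the gene, the peak covered the first 3 of 7 merged exons in every list, and 38.6% and 37.3% of the gene body at E14 and 35.7% and 32.6% at E17. A small second peak of 304 and 247 bp lay farther into the gene in the E14 lists, at the 68.7 and 21.0 percentile, and in neither E17 list. The coding genes on either side were free of peaks in their start-site windows in all 4 lists. These were Psmb2, which encodes a proteasome subunit, and Ncdn, whose record begins 3990 bp from the upstream edge of the domain (both picked with their values in view).

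**Figure D2:**
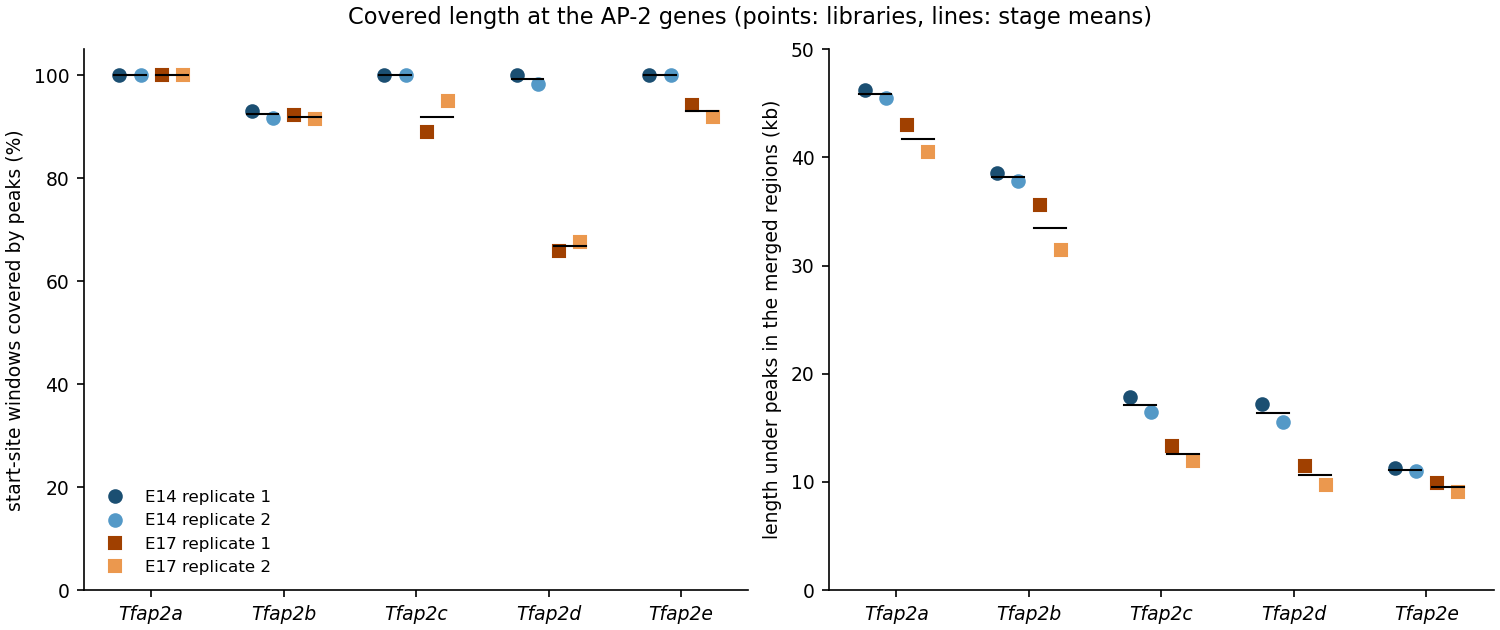
Left, share of the start-site windows covered by peaks in percent, and right, length under peaks in the merged regions of each gene in kb, with a point for each library (circles E14, squares E17) and a line for the mean of each stage. The share remained over 88% in each library at the genes other than Tfap2d, which went from 100% and 98.3% to 65.9% and 67.6%, and the length on the right was shorter in both E17 than in both E14 libraries at all 5 genes.

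Ordered by length under peaks at E14, Tfap2a came first, followed by Tfap2b, Tfap2c, Tfap2d and Tfap2e. The values of Tfap2c (17824 and 16453 bp) and Tfap2d (17235 and 15564 bp) overlapped, and the other neighbours in this order did not. At E17 the order was the same, with Tfap2d (11521 and 9694 bp) and Tfap2e (9883 and 9099 bp) overlapping. By strength within a list, averaged over the 4 lists, Tfap2e (99.0), Tfap2a (98.9) and Tfap2c (98.6) lay within 1 percentile point of each other, followed by Tfap2b (96.5) and Tfap2d (81.6). Thus length and strength ranked the family differently, with the shortest domain among the strongest.

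Across the family, peaks over the domains covered less at E17 than at E14 in 5 of 5 genes. The same was seen at 87.5% of the 2645 protein-coding genes with a peak in all 4 libraries, a share near that of the members. In the start-site windows alone, the covered length was shorter in both E17 libraries than in both E14 libraries at 3 of 5 members (Tfap2c, Tfap2d and Tfap2e), against 77.8% of these genes and 63.3% of the 5675 genes with a peak in any library. A window that is wholly covered at both stages, as at Tfap2a, cannot show a difference. The median change of window coverage over the 5 genes was -6.97%, and over the 4270 genes marked in both E14 libraries it was -58.2% (quartiles -95.0% and -30.7%). Among those genes, 1015 had no window coverage in either E17 library. Tfap2d stood at the 73.4 percentile of this distribution, where 100 is the least reduced, and the other 4 stood between 91.8 and 98.6. The place of Tfap2d rests on the full lists, since its change was 0 bp with merged peaks and 5591 bp, higher at E17, with lists of equal covered length. The 4270 genes were not matched to the members for E14 coverage or domain length. Over the whole domains, the members changed by -9.06% (Tfap2a) to -35.3% (Tfap2d), and no such change over all genes is given here.

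**Figure D3:**
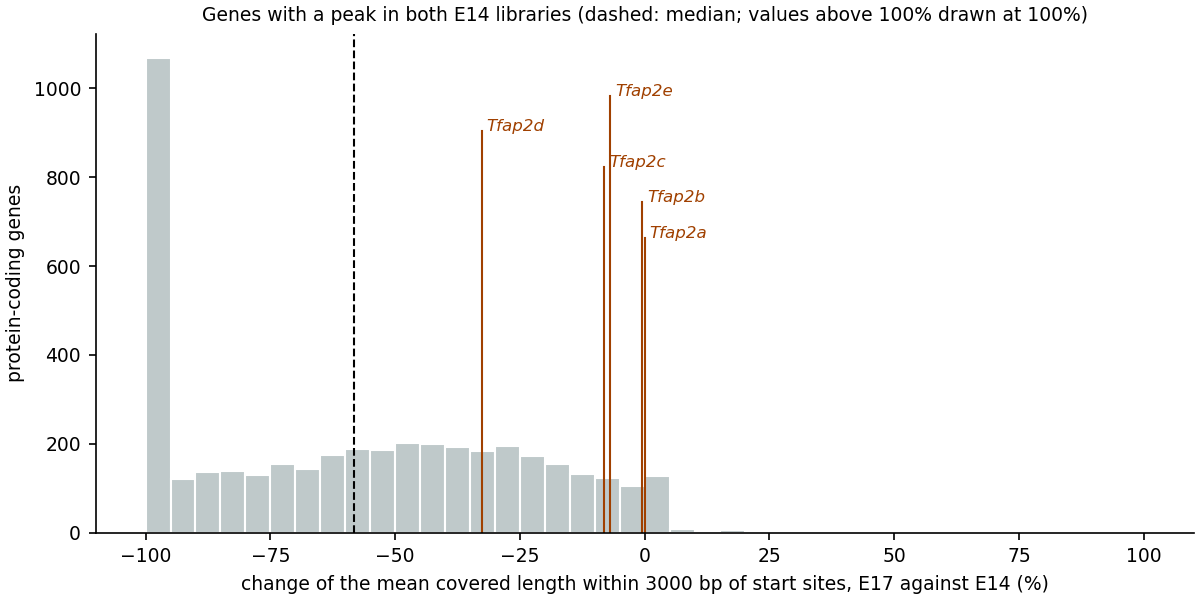
Change of the mean covered length in the start-site windows from E14 to E17 in percent, for the 4270 protein-coding genes with a peak in both E14 libraries (grey bars, number of genes per 5% bin), with the 5 AP-2 genes as labelled lines whose heights carry no value. The dashed line is the median of all these genes (-58.2%), and each AP-2 gene lies to the right of it.

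The way the domains shortened differed within the family. Tfap2a, Tfap2b and Tfap2d were called as more peaks in both E17 libraries than in both E14 libraries (3 and 3 against 4 and 5, 1 and 1 against 3 and 4, and 1 and 3 against 6 and 4), or 3 of 5 genes against 7.03% of genes with a peak in all 4 libraries. Those genes were not matched for domain length. The median peak of a list was 919 to 1256 bp wide, and a short domain has less room to be called as several peaks. Whether the AP-2 genes differ from others with domains as long was not tested. Of the family, 2 genes, Tfap2a and Tfap2b, had a peak of at least 10 kb at the windows in every list, as did 6.54% of these genes (a width chosen after the values were seen). At Tfap2c and Tfap2e, the bases covered in both E14 lists and neither E17 list lay outside the span of E17 peaks within each region (1858 and 948 bp, at Tfap2e with part of the small E14 peak). Each region was taken alone, so bases beside a stretch with no peak in any list count as outside or at the edges. At Tfap2c, those from 172557817 to 172558883 lay between E17 peaks of the 2 regions. At Tfap2b the bases covered at E14 only were 1125 bp between E17 peaks and 633 bp at the edges, and at Tfap2a 1167 and 739 bp.

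**Figure D4:**
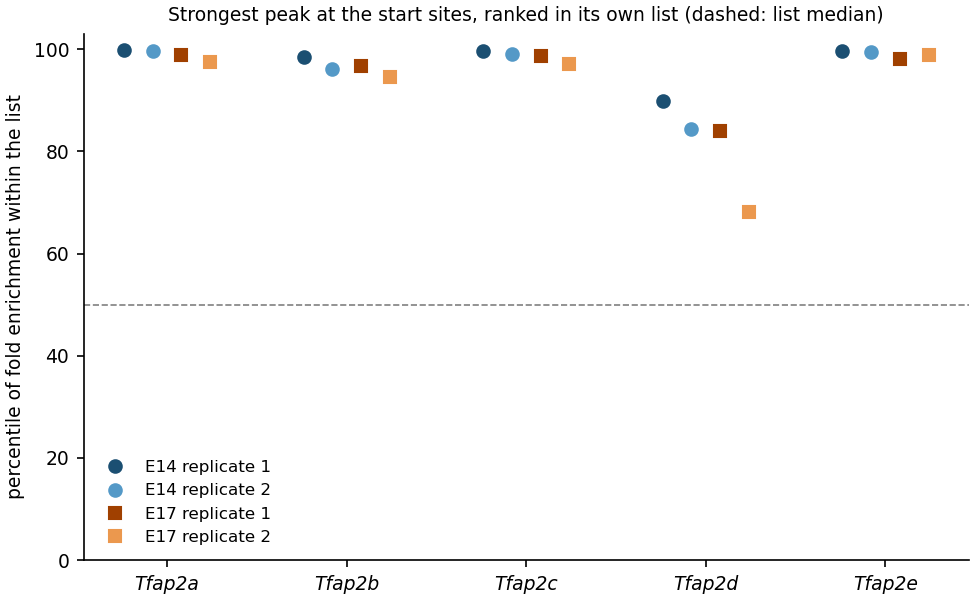
Percentile of fold enrichment of the strongest peak at the start sites within its own list (100 is the strongest, the dashed line the median peak), for each AP-2 gene and library (circles E14, squares E17). Tfap2a, Tfap2b, Tfap2c and Tfap2e lie above 94 in all lists, and Tfap2d lies between 68.2 and 89.9.

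The strongest peak stood at the 90 percentile or above in every list at 4 of the 5 genes, and so did 20.8% of genes with a peak in all 4 libraries (a limit chosen after the values were seen). The bases covered at both stages held more CpG than those covered at E14 alone. In 500-bp bins over the domains of the 5 genes, the median was 9 CpG (quartiles 5 and 18) in 197 bins covered in all 4 lists, and 5 CpG (quartiles 3 and 9) in 21 bins covered in both E14 lists and neither E17 list. The first median was the higher one at each of the 5 genes, and at Tfap2c, the richest in CpG, the medians were 18.5 and 8.5, in 22 and 4 bins. These bins adjoin one another and share libraries, and the values are given as a description.

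The genes most like each member in these lists were found by the distance over 8 values, the covered share of the windows and the percentile of the strongest peak in each of the 4 lists. For Tfap2a they were Hoxc11 and Hoxc12 (distance 0.00573 for both), for Tfap2b Hes5 (0.0743) and Pax6 (0.0759), and for Tfap2c Foxd4 (0.0461) and Sox17 (0.0521). For Tfap2e they were Emx1 (0.0216) and Prdm14 (0.0233). Hoxc11 and Hoxc12 had the same values in each list. For Tfap2d they were Otop3, which encodes a proton channel, and Xkr7, at greater distances of 0.121 and 0.125. The nearest member to Tfap2d was Tfap2b, at 0.492, farther than any other member from its nearest.

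AP-2 proteins act with cofactors, and 14 of these were examined in the same windows. Of the 14, 6 had a peak in both E14 libraries, 3 had one in both E17 libraries and 8 had none in any list. Among all protein-coding genes, 19.5% had a peak in both E14 libraries and 12.2% in both E17 libraries, and 5675 of 21951 had one in any list. The median change of window coverage of the 6 was -68.1%, beside -58.2% over all genes marked in both E14 libraries. Genes are named here where their presence differed between the stages, or as examples picked after their values were seen, and not every listed gene is named. Kctd1, whose product inhibits AP-2α, was covered for 9664 and 7353 bp at E14 and 4777 and 5456 bp at E17, while its relative Kctd15 had no peak. Cited1, a coactivator, was covered for 4868 and 4845 bp at E14 and 1914 and 919 bp at E17. Cited4, a related coactivator, had 1420 and 896 bp at E14 and 845 and 0 bp at E17. Crebbp, a histone acetyltransferase, had 1027 and 733 bp at E14 and none at E17. Ep300, Cited2, Dek, Npm1, Sub1, Parp1 and Yeats4 had no peak in any list. The covered length was shorter in both E17 than in both E14 libraries at 5 of the 6 marked partners, against 63.3% of all genes with a peak in any library.

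In the neural crest, where AP-2α and AP-2β act, 14 of 16 regulators and receptors had a peak in both E14 libraries and 12 in both E17 libraries, with a median change of -11.3% in window coverage. Over all protein-coding genes the corresponding values were 19.5%, 12.2% and -58.2%. The covered length was shorter in both E17 libraries at 7 of the 14 marked genes, against 63.3% of all genes with a peak in any library. Foxd3 (6001 bp), Pax3 (6297 bp) and Pax7 (6522 bp) had the same covered length in all 4 lists, as had Tfap2a. Ednrb, an endothelin receptor, had 2472 and 2062 bp at E14 and none in either E17 list. Sox9 had 2012 and 1151 bp at E14 and 176 and 0 bp at E17. Snai2 and Ednra had no peak in any list.
Of 13 epithelial genes, 7 had a peak in both libraries of each stage, with a median change of -40.6%, and 6 had none in any list. Over all protein-coding genes, 19.5% had a peak in both E14 libraries, with a median change of -58.2%, and 12.2% in both E17 libraries. The covered length was shorter in both E17 libraries at 5 of the 7, near the 63.3% of all genes with a peak in any library. Grhl2, a regulator of epithelial identity, had 6023 bp in each E14 library and 6023 and 5102 bp at E17, and Grhl3 had 5132 and 5321 bp at E14 and 2953 and 3252 bp at E17. Cdh1, which encodes E-cadherin, had 6793 bp in each E14 library and 5297 and 5529 bp at E17. Trp63, Krt5 and Krt14, which mark basal keratinocytes, had no peak in any list, and nor did Egfr, Erbb2 and Cdkn1a.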

How the data were processed

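H3K27me3 ChIP-seq peaks of 4 libraries of mouse dermal fibroblasts (E14 and E17, n = 2 each) were analysed. Per the labels, reads were aligned with Bowtie2 2.3.5.1 to mm10 (GRCm38) and peaks were called with MACS2 2.2.7.1; the study's methods give broad peaks at a q-value threshold of 0.01. Replicates were not pooled, and the control of the peak call is not given in the sources used here. The study's methods state subsampling of reads, for WT at E18.5 and for Kdm6b-cKO, to match the depth of the other samples. They name WT at E18.5 both beside E14.5 and beside Kdm6b-cKO. Whether the former, used here, was subsampled is not stated outright, and reads were not analysed here. The deposited lists hold a fold enrichment (ratio to local background), a −log10 p-value and −log10 q-value, and a display score; the score and p-value were not used.

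Genes came from GENCODE vM21 (55450 genes) and promoters from RefSeq. Overlaps of at least 1 bp counted, and overlapping peaks of the 4 lists were merged into regions. Named genes are the 5 members, overlapping genes, the 2 nearest genes of each over 8 values and 3 lists. Some listed genes are not reported here. Members, lists and tests were chosen with earlier results of these data known. Computation ran in Python 3.11.15 with scipy 1.17.1, pandas 2.3.3 and numpy 2.4.6. The coverage calculation was tested on simulated data. Alternatives were other windows, start sites, thresholds, widths, list lengths and rankings, joined peaks, single libraries left out and a replicate block.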

Additional observations from a re-analysis of the deposited data

How the results depend on the processing

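The lists hold no read counts, which limits how far a missing peak can be read. Of 157 alternative values, 138 kept their direction (differences), stayed within the replicate spread (percentiles) or within 1.5 times (counts), 17 moved further and 2 reversed. With peaks of a −log10 q-value of at least 5, Tfap2d kept its direction with 3637 and 0 bp covered at E17.

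Tfap2d reversed to 5591 bp, higher at E17, with lists of equal covered length, since its E14 peaks were then left out. It came to 0 bp with peaks within 3000 bp merged. With windows of 1000 bp, the change was 0 bp at Tfap2b, Tfap2c and Tfap2e, and with windows of 5000 bp it was -307.0 bp at Tfap2a and -1664.5 bp at Tfap2b. With the 5′ end of the gene alone it was 0 bp at Tfap2c and -813 bp at Tfap2d. The members with a shorter covered length at E17 numbered 1 with windows of 1000 bp, 1 with merged peaks, 2 with lists of equal covered length, 2 with the 5′ end alone and 4 with windows of 5000 bp. Ranked by −log10 q-value, the mean percentile of Tfap2e was 98.4. Ranked by width, it was 99.1 at Tfap2b, 94.5 at Tfap2d and 97.6 at Tfap2e. Among peaks of at least 1000 bp, it was 97.8 at Tfap2a, 93.0 at Tfap2b, 97.3 at Tfap2c, 66.8 at Tfap2d and 98.0 at Tfap2e.

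Leaving out 1 library at a time, the change ranged from -124.5 to 16.5 bp at Tfap2b (reversed in sign without E14 replicate 1), from -950 to -431 bp at Tfap2c, from -3377 to -3200 bp at Tfap2d, from -491 to -346 bp at Tfap2e and from -2306 to -1703 bp between Tfap2d and Tfap2b, and the members with a shorter length numbered 3 to 4. The mean percentile ranged from 78.9 to 86.1 at Tfap2d and from 98.6 to 99.4 at Tfap2a.

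Replicate numbers name samples only. Over 5675 genes, the differences between replicates 1 and 2 correlated at 0.165 between the stages. With the replicate block, each change was the same by construction, for example -3288.5 bp at Tfap2d, and these values are counted among the 138 above. The exact sign-flip p was 0.5, the smallest that 2 pairs allow, except 1 at Tfap2a, so the block could change no call.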
